A study of Glycine max with 23 samples.

Results

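miR172 is a family of plant microRNAs that pair with the messages of AP2-like transcription factors. The members described here were the table entries that the depositors named gma-MIR172a, gma-MIR172b, gma-MIR172c, gma-MIR172h or gma-MIR172k. All arms were kept and entries with an identical mature sequence were joined, which gave 5 distinct sequences, held in 7 entries, out of 2839 distinct sequences in 3933 entries. The sequences are miR172a (also listed as miR172b-3p and miR172h-3p), miR172b-5p, miR172c, miR172h-5p and miR172k.

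The series covers 23 small RNA libraries of soybean, Glycine max cv. Williams 82, an inbred cultivar, from untreated plants grown at a research station in Beijing. All libraries share that genotype, and none is a repeat of another, so each organ below is a set of different stages and not a set of replicates. Leaf had 6 libraries (new leaf at germination, trefoil and flower bud differentiation, old leaf at trefoil and flower bud differentiation, and senescent leaf). Flower had 5 (flower bud at bud differentiation, bud before flowering, flowers at florescence on 2 dates, and flowers 5 days after flowering). Pod had 3 (1, 2 and 3 weeks) and developing seed 3 (about 6, 8 and 10 weeks), stem 2 (germination, trefoil), cotyledon 2 (germination, and old cotyledon at trefoil), and leaf bud (flower bud differentiation) and root (germination) had 1 each. The number of plants behind a library is not given in the sources used here, and a table of small RNAs holds no messenger RNA markers with which to check the tissue labels.

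As background, miR172 lowers the output of its AP2-like targets both by blocking translation and by cutting the message. In Arabidopsis those targets, among them TOE1 and SMZ, delay flowering, while AP2 itself specifies sepals and petals. The family is best known for its rise as a shoot ages, opposite to miR156, for limiting AP2 in the inner whorls of the flower, and in soybean also for a role of miR172c in root nodulation through NNC1. A miRNA hairpin yields a 5p and a 3p strand, and in miR172 the 3p strand is the one known to guide silencing.

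The mature sequences as deposited are given 5′ to 3′, with bases 2 to 8, the seed that a guide strand uses first, in capitals. They are shown because the sequences of an arm differ by few bases. The 3p members were:
miR172a: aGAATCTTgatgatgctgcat
miR172k: tGAATCTTgatgatgctgcat
miR172c: gGAATCTTgatgatgctgcag
These 3 share the seed. Counted from 1 at the 5′ end, miR172k differs from miR172a by A1T, and miR172c by A1G and T21G, so all the differences lie at the ends. The 5p members, followed by the 2 abundant unnamed sequences that belong beside them, were:
miR172b-5p: gTAGCATCatcaagattcac
miR172h-5p: gCAGCAGCatcaagattcaca
M4097-5p: gTAGCATCatcaagattcaca
M4341-5p: gGAGCATCatcaagattcaca
M4097-5p is miR172b-5p with 1 more base at its 3′ end, and its entries lie on hairpins that also carry miR172a, b and f. M4341-5p differs from M4097-5p by T2G, and its entries lie on the hairpins of miR172c, d and e. miR172h-5p differs from M4097-5p by T2C and T7G, both within bases 2 to 8.

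The table places the miR172a hairpin on chromosome 12 at 6110704 to 6110862 on the minus strand and that of miR172b on chromosome 13 at 40401673 to 40401825, also minus. The miR172c hairpin lies on chromosome 18 at 2968986 to 2969138, that of miR172h on chromosome 10 at 43474733 to 43474823, and that of miR172k on chromosome 12 at 33560621 to 33560754, all plus. The genome build is not given in the sources used here, and the position of these hairpins relative to other genes was not examined. Because miR172a is one sequence on 3 hairpins, its level cannot be divided among them, and miR172h-5p is likewise listed for miR172i and miR172j. miR172c is listed for 1 hairpin only, but its 21 bases also begin the 24-base sequence listed for miR172d and miR172e. Its level therefore cannot be assigned to the chromosome 18 hairpin alone.

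Levels are in TP5M, tags per 5000000 sequenced tags, as the authors scaled them. Low values came in whole multiples of 1 tag, from which depths of 3630000 to 6740000 tags per library follow, and 3 tags were worth 2.22 to 4.14 TP5M. Intervals in brackets are exact 95% Poisson intervals, which cover counting error only. A value of 0 is a listed 0, and whether the molecule was missing cannot be told from it. For example, miR156a was listed at 0 in 6 of the 23 libraries. Among them was the new leaf at trefoil, where its family member miR156c, a different sequence, stood at 829.8 TP5M. The old leaf at trefoil, both leaves at bud differentiation and the 3 pods shared 13 sequences that were listed in at least 5 of these 6 libraries and in no other. This set came from a search of these data over all sets of 6 libraries, as the one with the most such sequences. The next set, which overlaps it, had 8. How many a search would find by chance was not tested, and the labels do not say what the 6 libraries have in common. Fewer cells of a type in an organ and less of a small RNA per cell cannot be told apart in these libraries.

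Among the 3p guides, miR172a was the most abundant member, at a mean of 229.7 TP5M over the 23 libraries. In leaf it was listed at 114 [95.5 to 136] in the new leaf at germination, 312 in the new leaf at trefoil, 397 in the old leaf at trefoil, 1087 [1031 to 1146] in the new leaf at bud differentiation, 1214 in the old leaf at bud differentiation and 687 in the senescent leaf. The 2 leaves from the stage of flower bud differentiation were the highest of all libraries, and the leaf of the germinating plant was the lowest leaf. In flower it lay between 66.8 and 149.98 TP5M with a median of 127, and in pod at 75.1, 123 and 115 for weeks 1, 2 and 3. The seed libraries held 1.8, 7.11 and 3.35 TP5M at 6, 8 and 10 weeks, which is 2, 6 and 3 tags. Stem was at 13.5 (germination) and 39.1 (trefoil), cotyledon at 5.19 and 22.1, root at 33.5 and the leaf bud at 419.

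miR172c, which differs from miR172a at both ends and is listed for another hairpin, had another distribution. Its highest values were in the bud before flowering, at 256 [227 to 289] TP5M, and in the flowers at florescence, at 157. The flower bud at bud differentiation stood at 126, the flowers of the other date at 109 and those 5 days after flowering at 123. In leaf it was listed at 0 at germination, 3.31 and 2.4 in the new and old leaves at trefoil, 10.1 and 3.92 in the new and old leaves at bud differentiation, and 6.18 in senescence, so the highest leaf held 13 tags. Every flower was thus above every leaf. Pods lay between, at 100.4, 57.6 and 49.2 TP5M for weeks 1 to 3. Seeds were at 111 [92 to 132], 73.5 and 3.35 [0.691 to 9.79] at 6, 8 and 10 weeks, and the oldest seed was 33.0-fold under the youngest. Both stems, both cotyledons and the root were listed at 0. The root library had the fewest sequences listed of all libraries, 687, which held 2.04% of its tags. The leaf bud, at 62.1 [45.3 to 83] TP5M, held 6.16-fold the level of the new leaf of the same stage.

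miR172k was a leaf sequence at low level. It was listed at 5.23 (new leaf, germination), 25.4 (new leaf, trefoil), 14.4 (old leaf, trefoil), 152 (new leaf, bud differentiation), 38.3 (old leaf, bud differentiation) and 22.7 TP5M (senescent leaf), and at 31.7 in the leaf bud. Every other library was at or under 5.66 TP5M, and 8 of the 23 were listed at 0.

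**Figure D1:**
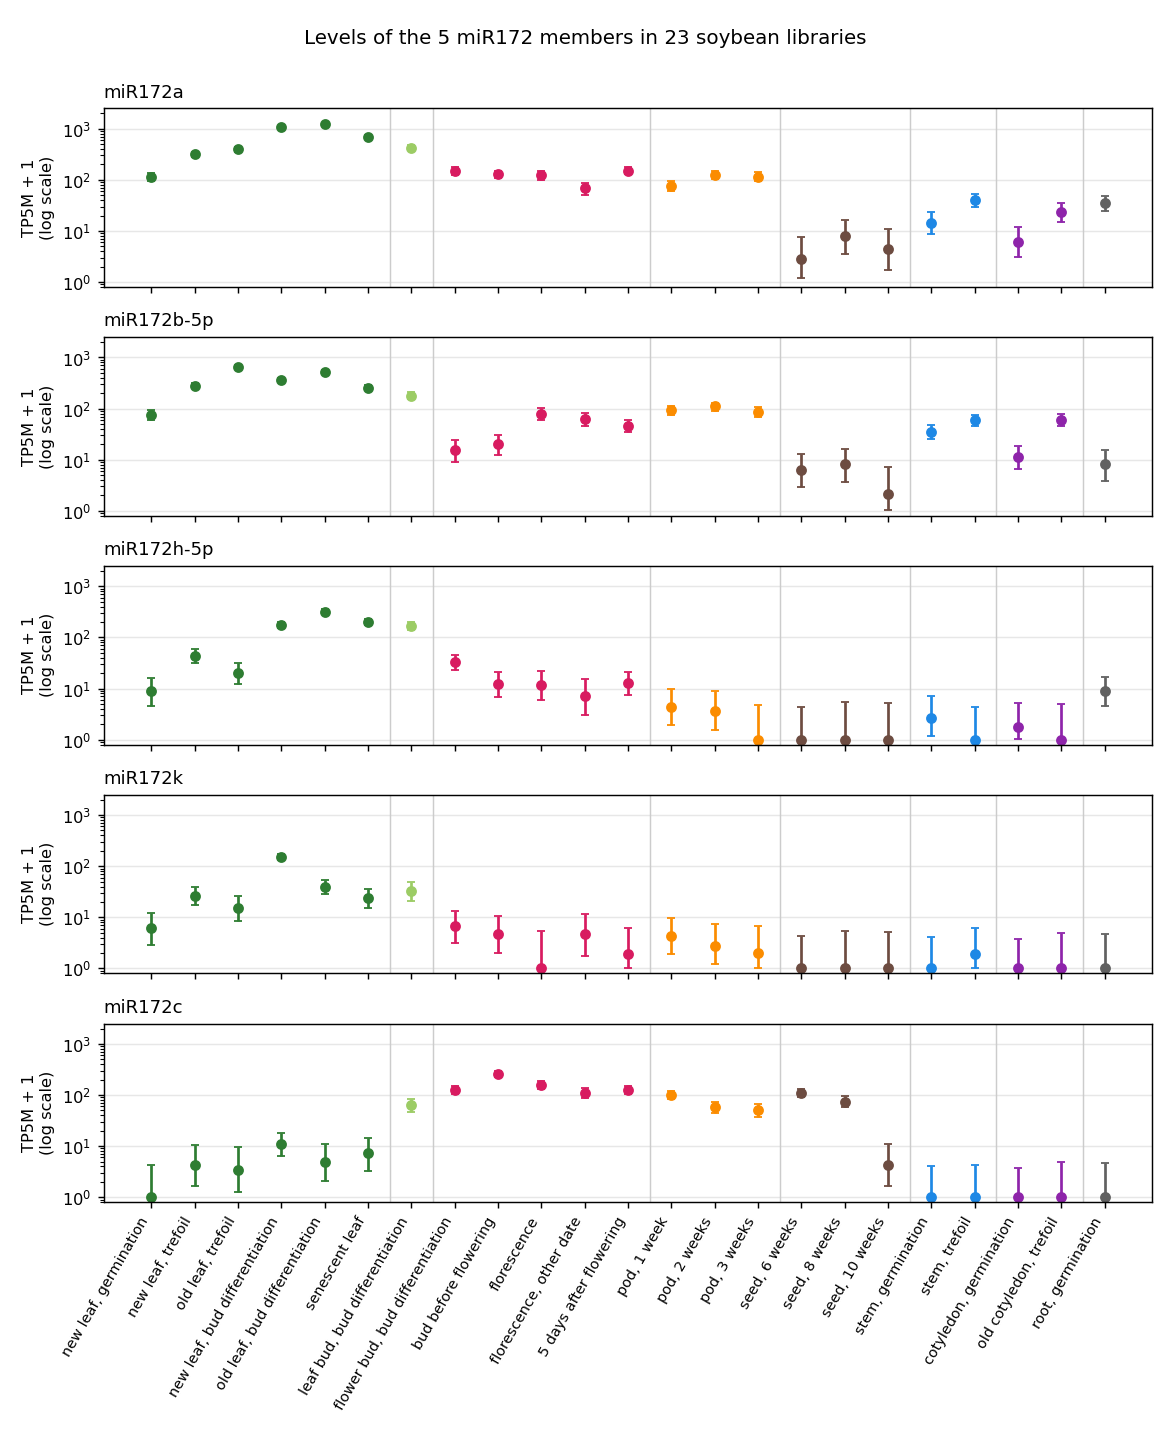
TP5M + 1 on a log scale for the 5 members in each of the 23 libraries, coloured by organ, with exact 95% Poisson intervals as bars. miR172a, b-5p, h-5p and k are highest in leaf libraries, whereas miR172c is above 100 TP5M in all 5 flower libraries and at most 10.1 TP5M in leaf.

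Of the 5p strands, miR172b-5p followed the leaf pattern. Leaf held 75.0, 280.3 and 654 TP5M in the new leaf at germination, the new leaf at trefoil and the old leaf at trefoil, and 361, 519.8 and 256 in the new leaf and the old leaf at bud differentiation and in the senescent leaf. Its highest value was therefore in a leaf at trefoil, and not at bud differentiation as for miR172a. Flower ranged from 14.2 in the flower bud to 78.0 at florescence, pod from 86.0 to 109, and seed from 1.12 to 7.11 TP5M. Stem held 33.8 and 59.1 and cotyledon 10.4 and 59.0 at germination and trefoil, the root was at 7.1 and the leaf bud at 179.

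miR172h-5p stood low in the leaves of young plants and high from bud differentiation on. It was listed at 7.85 (new leaf, germination), 43.0 (new leaf, trefoil) and 19.2 (old leaf, trefoil), and at 177, 318 and 203 TP5M in the new and old leaf at bud differentiation and in the senescent leaf. The leaf bud was at 168. The flower bud, at 32.1, was 2.82-fold over the bud before flowering, and the later flowers were between 6.18 and 12.0. Pod was at or under 3.38, seed was listed at 0 in all 3 libraries, and stem, cotyledon and root did not exceed 8.12 TP5M.

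Put in order by organ mean, miR172a ran from leaf (635 TP5M) through leaf bud, flower, pod, root, stem and cotyledon to seed (4.09). The ranges of leaf and leaf bud overlapped, as did those of flower and pod, and those of root, stem, cotyledon and seed each overlapped the next. As a share of a library's listed tags, the 5 members together were at 0.0477% in root. The stems were at 0.0068% and 0.0201% and the pods at 0.0572% to 0.0608%. For miR172b-5p the order was leaf, leaf bud, pod, stem, flower, cotyledon, root and seed, and stem, flower and cotyledon overlapped in turn. For miR172c it was flower (154), pod (69.1), seed (62.5), leaf bud (62.1) and leaf (4.31), with stem, cotyledon and root at 0. Pod, seed and leaf bud overlapped in turn, while flower lay wholly above pod and leaf bud wholly above leaf. miR172h-5p and miR172k were highest in leaf and leaf bud, whose ranges overlapped for both, and flower came next, with a range that overlapped that of leaf.

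Flower against leaf separated the members. The test was limma on log2(TP5M + 5) with 1 mean per organ over all 23 libraries, and p-values adjusted by the Benjamini-Hochberg method over the 595 sequences whose mean reached 5 TP5M, called at 0.05. The spread is that between stages within organs, pooled over the organs. All 5 members passed that filter and all 5 were called, 1 higher in flower and 4 lower, against 24.9% of all tested sequences called (21.2% higher and 3.7% lower, or 10.3% and 6.39% after TMM scaling). The 4 lower members are not independent: miR172b-5p and miR172h-5p each share a hairpin with miR172a, with an r of 0.86 to it. The flower mean of miR172c was 154 ± 59.6 TP5M over 5 libraries (SD), the leaf mean 4.31 ± 3.47 over 6, and the difference log2 4.11 ± 0.51 (SE) with a limma adjusted p of 0.0001. The groups did not overlap, as was so for 9.92% of all sequences. miR172b-5p had a log2 difference of −2.86 ± 0.55 (limma adjusted p = 0.00137), higher in all but the lowest leaf than in any flower. miR172k had −2.10 ± 0.47 (limma adjusted p = 0.00358), where only the new leaf of the germinating plant lay within the range of flower. miR172a had −1.99 ± 0.54 (limma adjusted p = 0.0132), with 5 of 6 leaves above every flower, and was not called with no filter on low values (adjusted p = 0.0557) or with a term for the 6 libraries that share sequences. miR172h-5p was lower at −2.07 ± 0.65 (limma adjusted p = 0.0238), a call lost in 7 of 20 alternatives, among them leaving out the senescent leaf or any 1 of the 3 flower libraries from florescence on. The median of the 5 differences was −2.07, beside 0.43 for all tested sequences.

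Pod against flower called none of the 5 members, where 2.02% of all sequences were called (0.672% higher and 1.34% lower), and none had an unadjusted limma p under 0.05. edgeR's quasi-likelihood test on the recovered tags also called 0. The 95% intervals of the differences were wide: −2.39 to 0.19 for miR172c, −3.03 to 0.25 for miR172h-5p and −0.12 to 2.66 for miR172b-5p. The ranges of these 3 members did not overlap, with miR172c and miR172h-5p lower and miR172b-5p higher in pod, where 18.5% of all sequences had ranges apart. Pod against leaf called 4 members, 1 higher and 3 lower, beside 16.8% of all sequences (12.3% higher and 4.54% lower, or 6.89% and 5.21% after TMM scaling). miR172c was higher in pod, 69.1 ± 27.5 against 4.31 ± 3.47 TP5M, log2 3.01 ± 0.60 (limma adjusted p = 0.00242), and every pod exceeded every leaf (15.3% of all sequences had ranges apart). miR172h-5p (log2 −3.46), miR172k (−2.21) and miR172a (−2.20) were lower in pod. The miR172a call was lost without any 1 of the 3 pod libraries, and that of miR172k without the pod of 3 weeks. miR172b-5p had a limma adjusted p of 0.105 at 95.7 ± 12.0 against 358 ± 205 TP5M. The median difference was −2.20, beside 0.12 for all.

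Seed against pod called 2 members, both lower in seed, beside 16.3% of all sequences, 12.3% lower and 4.03% higher (7.73% and 7.56% after TMM scaling). miR172a was 4.09 ± 2.73 against 104 ± 25.7 TP5M (n = 3 and 3), from 2 to 6 tags a seed library, with log2 −3.60 ± 0.73 (limma adjusted p = 0.00253). miR172b-5p was 4.54 ± 3.09 against 95.7 ± 12.0, log2 −3.45 ± 0.74 (limma adjusted p = 0.00356). No seed library reached the lowest pod for either (50.1% of all sequences had ranges apart). miR172c was at 62.5 ± 54.5 in seed and 69.1 ± 27.5 in pod, a difference whose 95% interval ran from −2.19 to 0.70 on the log2 scale. The median over the 5 members was −0.75, beside −0.64 for all.

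Seed against leaf called all 5, 4 lower in seed and miR172c higher, beside 16.3% of all sequences (9.58% lower and 6.72% higher, or 9.08% and 11.4% after TMM scaling). miR172a had a log2 difference of −5.80 ± 0.63 (limma adjusted p = 5.07e-06) and miR172b-5p −5.04 ± 0.64 (limma adjusted p = 2.52e-05). miR172h-5p and miR172k were listed at 0 in every seed, beside leaf means of 128 and 43.0 TP5M, or 21.2 for miR172k without the new leaf at bud differentiation. miR172c, at log2 2.27 ± 0.60 (limma adjusted p = 0.0121), rested on the younger seeds: the call was lost without the seed of 6 weeks (log2 1.54) or of 8 weeks (log2 1.82), and the seed of 10 weeks lay within the range of leaf. With the 2 zero members placed at 3 tags, the median of the 5 differences was −5.04, and as fitted −3.91, beside −0.38 for all.

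Seed against flower called 3 members lower, beside 29.7% of all sequences (25.4% lower and 4.37% higher, or 10.9% and 11.6% after TMM scaling), and the median of all sequences was itself −0.84, or −0.21 after TMM scaling. miR172a was lower at log2 −3.80 ± 0.66 (limma adjusted p = 0.000475). miR172b-5p (log2 −2.18, limma adjusted p = 0.0203) and miR172c (log2 −1.84, limma adjusted p = 0.0295) were not called after TMM scaling, and both calls were lost without the seed of 10 weeks, where the miR172c difference became −0.67. Both were also lost without the first florescence library, and that of miR172c without the bud before flowering.

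Stem and cotyledon, with 2 libraries each, were both lower than leaf for the same 4 members, miR172a, b-5p, h-5p and k. Their libraries come from germination and trefoil only, whereas the leaf group also holds the later leaves, where miR172a, h-5p and k are highest. For stem 6.89% of all sequences were called (5.04% higher and 1.85% lower), and for cotyledon 9.75% (7.9% higher and 1.85% lower). miR172a had log2 differences of −4.10 ± 0.73 for stem (limma adjusted p = 0.00123) and −4.88 ± 0.73 for cotyledon (limma adjusted p = 0.000397). At matched stages miR172a was lower than leaf in stem by 8.44-fold at germination and by 7.98-fold and 10.1-fold against the new and old leaf at trefoil, and in cotyledon by 22.0-fold, 14.1-fold and 17.9-fold. With a term for stage, the log2 difference of miR172a was −2.88 for stem (limma adjusted p = 0.00242) and −3.66 for cotyledon (limma adjusted p = 0.000343), and miR172b-5p and k were no longer called for stem. miR172b-5p had −2.60 for stem (limma adjusted p = 0.0431), a call lost in 13 of 18 alternatives, and −3.27 for cotyledon. Without the stem of the germinating plant no member was called for stem, and without the stem at trefoil 1 was. Without the cotyledon of the germinating plant 1 member was called for cotyledon, and without the old cotyledon 2 were. miR172c, at 0 in both organs and at most 10.1 TP5M in leaf, was not called in either comparison.

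**Figure D2:**
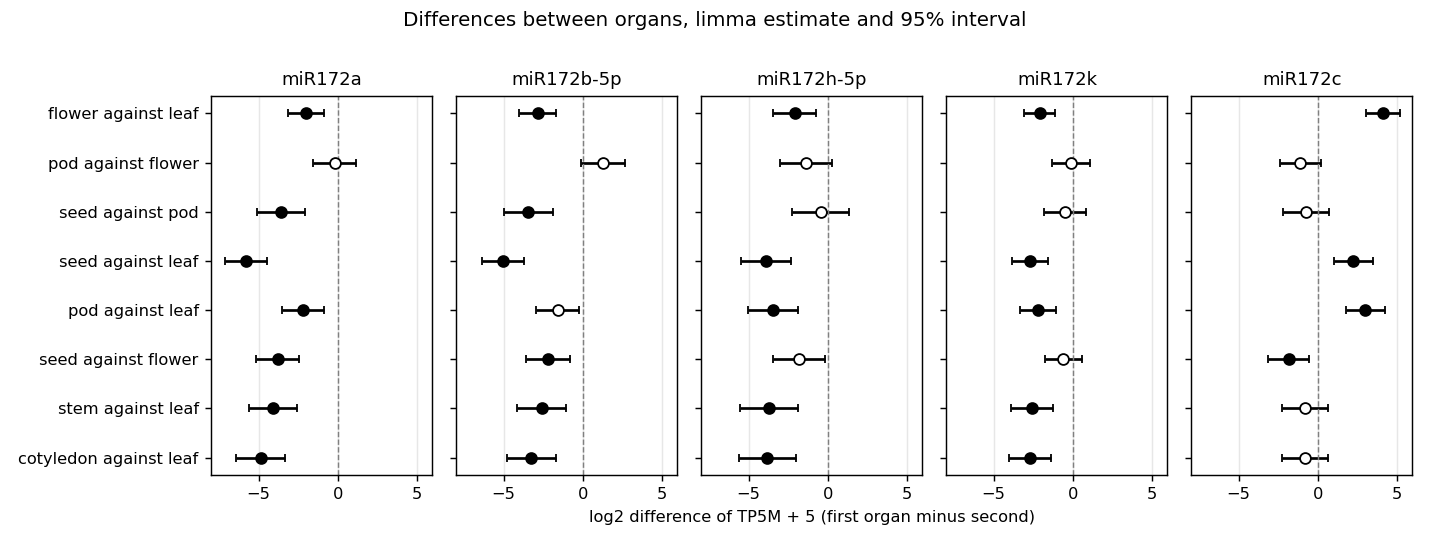
Log2 differences of TP5M + 5 between organs for each member, first organ minus second, with limma's 95% interval. Filled points passed an adjusted p of 0.05. Only miR172c has filled points to the right of 0, for flower, seed and pod against leaf.

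Leaf, flower, pod and seed were also compared in 1 limma F-test, in which all 5 members were called, as were 39.5% of all sequences. The 8 comparisons share libraries, so their calls are not independent of each other.

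The balance of the 2 guides miR172c and miR172a within a library does not depend on its scaling, apart from the 5 TP5M added to each. The mean log2 ratio of miR172c to miR172a was −5.80 ± 0.85 in leaf (SD, n = 6), 0.30 ± 0.55 in flower (n = 5), −0.59 ± 0.86 in pod (n = 3) and 2.26 ± 2.08 in seed (n = 3). By library, leaf ran from −7.09 in the old leaf at bud differentiation to −4.58 in the new leaf at germination. With miR172c between 0 and 10.1 TP5M in leaf, these values also depend on the added 5 TP5M and on the level of miR172a. Flower ran from −0.27 5 days after flowering to 0.98 in the bud before flowering, and seed was at 4.09, 2.70 and 0 for 6, 8 and 10 weeks. In the seed of 10 weeks both sequences stood at only 3.35 TP5M. The ratio of every flower, pod and seed was above that of every leaf. So were both stems (−1.89 and −3.14), both cotyledons (−1.03 and −2.44) and the root (−2.94), where miR172c was listed at 0 and the ratio reflects the added 5 TP5M and the level of miR172a. A two-sided exact permutation test gave p = 0.00433 for flower against leaf, the smallest that 462 regroupings allow (0.026 adjusted over the 6 organ pairs). The exact p was 0.0238 for seed against leaf and for pod against leaf, again the smallest possible (adjusted 0.0476). The exact p was 0.143 for pod against flower and for seed against flower (adjusted 0.171), and 0.2 for seed against pod, where 3 against 3 cannot go under 0.1. The leaf bud, at −2.66, lay above all leaves and below all flowers.

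**Figure D3:**
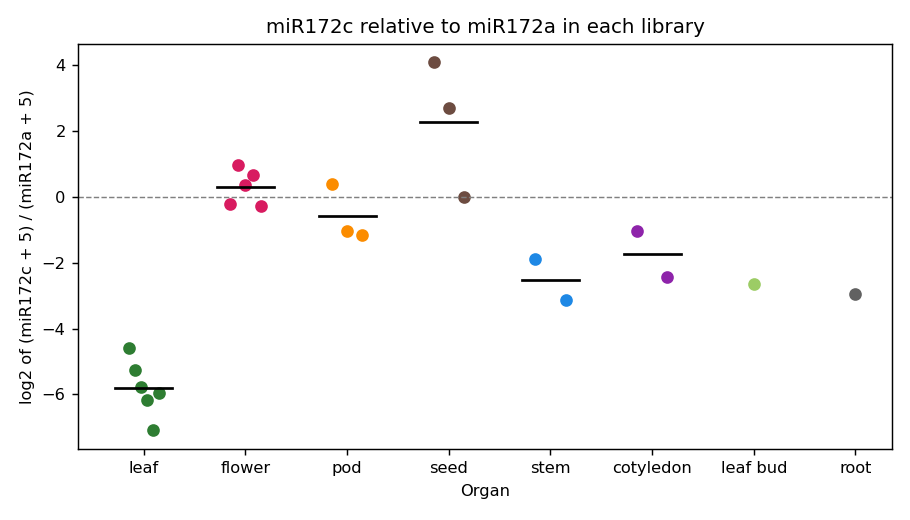
Log2 ratio of miR172c to miR172a, 5 TP5M added to each, with 1 point per library and a line at the mean of each organ. All leaf points lie between −7.09 and −4.58, and all flower, pod and seed points lie above them, from −1.14 to 4.09.

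Within leaf, the stages can be described but not tested, since each is 1 library. From the germinating plant to flower bud differentiation, miR172a in the new leaf was 2.73-fold higher at trefoil and a further 3.48-fold higher at bud differentiation, 9.52-fold in all. Over the same span miR172k was 29.0-fold and miR172h-5p 22.6-fold higher, against 4.81-fold for miR172b-5p. TMM scaling, with factors from 0.614 at germination to 1.37 at bud differentiation, lowers these spans to 4.26-fold for miR172a, 13.0-fold for miR172k, 10.1-fold for miR172h-5p and 2.15-fold for miR172b-5p. The new leaf at bud differentiation is also the only new leaf in the set of 6 libraries with shared sequences, so stage and set cannot be told apart along the new leaves. Old leaves showed the same step from trefoil to bud differentiation for miR172a (3.06-fold, or 1.98-fold after TMM scaling) and miR172h-5p (16.5-fold, or 10.7-fold), with both libraries in that set. miR172b-5p was at 0.795 of its trefoil level, or 0.513 after TMM scaling. In TP5M the senescent leaf was at 0.566 of the old leaf at bud differentiation for miR172a, 0.493 for miR172b-5p, 0.638 for miR172h-5p and 0.592 for miR172k. After TMM scaling these became 0.99, 0.863, 1.12 and 1.04, so no decrease common to the members remained.

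Old and new leaves of one stage did not differ in one direction over the members. miR172a was 1.27-fold higher in the old leaf at trefoil and 1.12-fold higher at bud differentiation. miR172b-5p was 2.33-fold and 1.44-fold higher in the old leaf. miR172h-5p was at 0.447 of the new leaf level at trefoil, from 16 tags, and 1.79-fold higher at bud differentiation. miR172k was lower in the old leaf at bud differentiation, at 0.252 of the new leaf.

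Outside leaf, the later stage also held more miR172a in the other seedling organs. Stem was 2.89-fold higher at trefoil than at germination, and the old cotyledon at trefoil 4.26-fold higher than the cotyledon at germination, from 21 and 7 tags. miR172b-5p stood at 1.75-fold and 5.69-fold for the same pairs. These 2 pairs and the leaves all compare older with younger plants, with 1 library on each side.

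**Figure D4:**
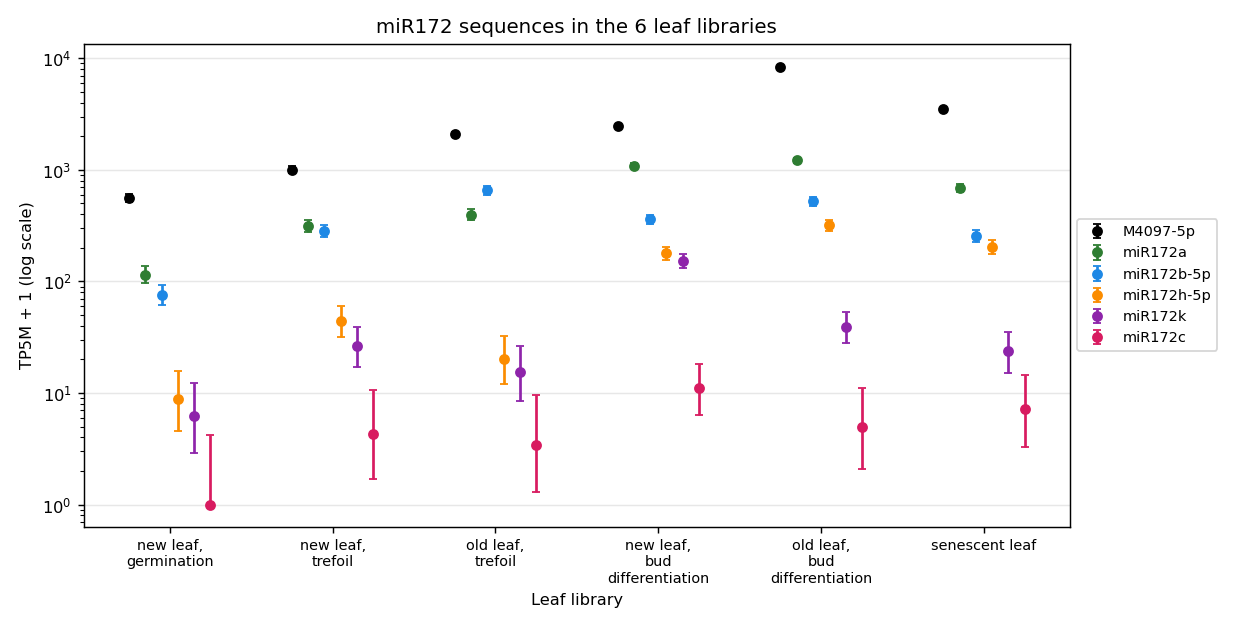
TP5M + 1 on a log scale for the members and for M4097-5p in the 6 leaf libraries, with exact 95% Poisson intervals. miR172a stands at 114 TP5M in the germinating plant's leaf and at 1087 and 1214 in the 2 leaves of bud differentiation, while miR172c stays at or under 10.1.

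The set of 6 libraries with shared sequences cut across the comparisons. miR172a averaged 899 TP5M in the 3 leaves of the set and 371 in the 3 other leaves, and miR172b-5p 511 and 204. All flowers and seeds lie outside the set and all pods inside it, so set and organ cannot be told apart for seed against pod. With a term for the set, 3 members were called for flower against leaf in place of 5 (miR172c, b-5p and k), and miR172a was at log2 −1.27 (limma adjusted p = 0.125). None was called for seed against pod (miR172a log2 −2.15, limma adjusted p = 0.294). With that term 25% of all sequences were called for flower against leaf (24.9% without it). For seed against pod 2.86% were called with the term and 16.3% without it.

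Among the unnamed 5p strands, M4097-5p averaged 1052 TP5M over the 23 libraries and reached 8364 in the old leaf at bud differentiation, beside 559, 1004, 2095, 2462 and 3492 in the other leaves from germination to senescence. It exceeded miR172a in all 23 libraries, by 1.36-fold in root to 22.5-fold in the seed of 6 weeks, where miR172a had 2 tags. Its 20-base form miR172b-5p stood at 0.0436 to 0.312 of it. M4097-5p was lower in flower than in leaf (log2 −2.27, limma adjusted p = 0.0149), and lower in seed than in pod (−3.79) and leaf (−5.70). The flower call was lost with no filter (adjusted p = 0.0549) and with the term for the 6 libraries (0.123), and the seed against pod call with that term (log2 −2.31, limma adjusted p = 0.369). It was 3.40-fold higher in the old than in the new leaf at bud differentiation and 2.09-fold higher at trefoil.

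M4341-5p, from the miR172c hairpin and 2 others, resembled miR172c. It was listed at 353 in the flower bud, 773 in the bud before flowering, 333 at florescence, 205 on the other date and 265 TP5M 5 days after flowering. Leaf lay between 0 and 96.1 TP5M, so the groups did not overlap. The flower mean was 386 ± 224 against 28.2 ± 36.2 in leaf, log2 4.12 ± 0.62 (limma adjusted p = 0.000374). Pod was also higher than leaf (log2 3.39 ± 0.72, limma adjusted p = 0.00508), a call that edgeR did not make (adjusted p = 0.0777). It exceeded miR172c in all 16 libraries where miR172c had at least 3 tags, by 1.11-fold to 24.5-fold, and the highest ratio came from the old leaf at bud differentiation with 4 miR172c tags. In the seed of 10 weeks M4341-5p was at 39.1 TP5M beside 3.35 of miR172c.

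**Figure D5:**
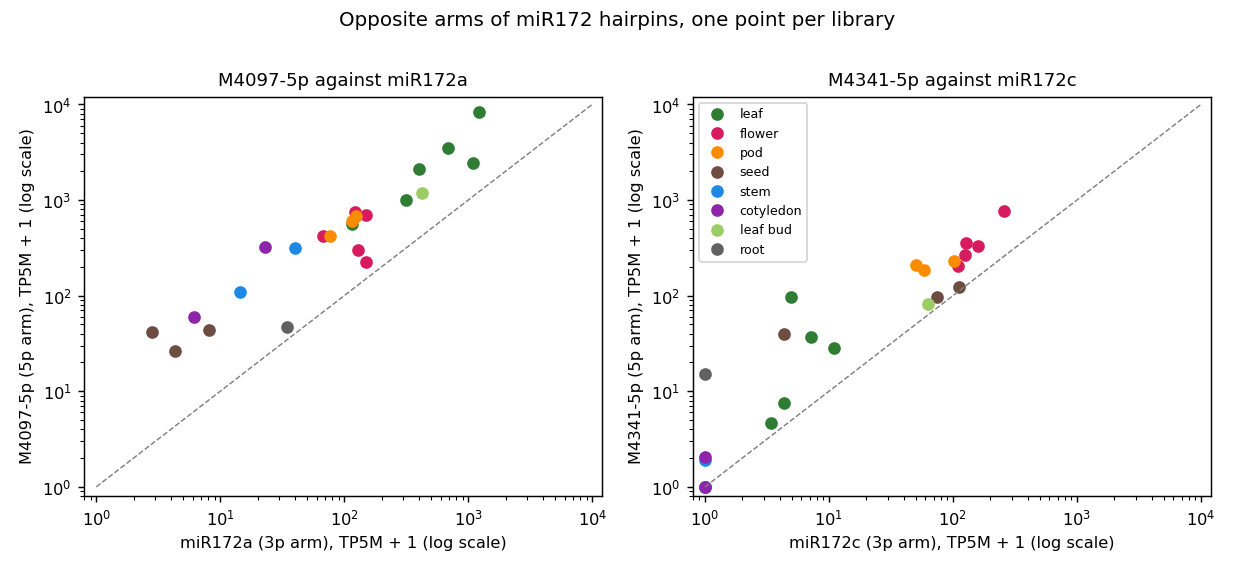
TP5M + 1 on log scales for 5p strands against 3p strands with shared hairpins, 1 point per library, coloured by organ, with a dashed line where both are equal. The hairpins match in part: miR172a is also listed for miR172h, M4097-5p for miR172f, and M4341-5p for miR172d and e. M4097-5p lies above miR172a in all 23 libraries.

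The other miR172 sequences were scarce. miR172f averaged 2.85, miR172g 1.70 and miR172i-3p 0.483 TP5M, and miR172d was listed at 0 throughout, so none entered the tests. The miR172d entry is a longer form of miR172c and miR172f a shorter form of miR172a. Their low values therefore do not give the output of the hairpins they are listed for. The unnamed M4492-5p, from the miR172k hairpin, averaged 10.7 TP5M and was called lower than leaf in flower, pod, seed and cotyledon, calls lost in 4 of 19, 5 of 17, 2 of 17 and 10 of 17 alternatives. M3967-3p, which starts 2 bases upstream of miR172a, averaged 9.56 TP5M and was called in no comparison.

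Across the 23 libraries, log2 levels of miR172a had a Pearson r of 0.94 with M4097-5p, 0.86 with miR172b-5p and with miR172h-5p, 0.82 with miR172k and 0.05 with miR172c. miR172c had 0.92 with M4341-5p and between −0.17 and −0.04 with the other 3 members. Stages and organs are shared by all these points, and M4097-5p shares hairpins with miR172a, so the values describe likeness only. Outside the family, the sequences most like miR172a were miR4376-5p (r = 0.77), miR319n (0.74) and M3566-5p (0.73). Those most like miR172c were miR4346 (0.88), M1015-5p (0.87) and M5639-3p (0.85), and those most like miR172b-5p were M4974-3p (0.73), the miR395 relative M0260-3p (0.68) and M5469-5p (0.67). The sequence with the most opposite pattern to miR172c was M1578-3p, a miR156 relative, at −0.78.

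miR156, which represses SPL transcription factors and so acts upstream of miR172 in Arabidopsis, had 7 named sequences that could be tested. Between flower and leaf 1 of the 7 was called, miR156q, lower in flower at log2 −1.56, beside 24.9% of all sequences called. Between pod and leaf 1 was called, miR156c, at 92.4 ± 19.3 TP5M in pod and 1256 ± 1079 in leaf (log2 −3.35, limma adjusted p = 0.00679), beside 16.8% of all sequences. Between seed and flower miR156q was called higher in seed (log2 2.43), beside 29.7% of all sequences. Between stem and leaf miR156g was called higher in stem (log2 2.00, limma adjusted p = 0.0276), beside 6.89%. None was called for pod against flower, seed against pod, seed against leaf or cotyledon against leaf, where 2, 0, 1 and 2 of the 7 had an unadjusted limma p under 0.05. Of all sequences 2.02%, 16.3%, 16.3% and 9.75% were called in these comparisons. edgeR also called 0 of the 7 in these 4 comparisons, and 0 for stem against leaf. Among new leaves, miR156c was at 1050.2 TP5M at germination, 829.8 at trefoil and 369 at bud differentiation, while the flower bud held 2392. Over all 6 leaves it reached 3330 TP5M, so the highest leaf was not a new leaf. These values are without TMM scaling, and stage and set cannot be told apart along the new leaves. The r of miR172a was −0.08 with miR156a and −0.05 with miR156c, and that of miR172c −0.33 and −0.57. The values with miR156a include the 6 libraries where it was listed at 0.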

How the data were processed

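Small RNA of 15 to 30 nucleotides was sequenced once from each of 23 soybean tissues, per the labels' protocols. The deposited table gives a normalised signal in TP5M, scaled by the authors to tags per 5000000 tags, per the file headers. The submitters' processing notes name BWA, without version. How it was run, the build and the handling of tags with several matches were not given in the sources used. Columns were matched to samples by the number in the sample title. A second number in brackets there gave a weaker match (mean correlation within and between organs of 0.762 and 0.739, against 0.833 and 0.728 for the title number).

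Entries with the same sequence were merged by their maximum. They disagreed for 2 sequences, none a member. Low values, up to 200 tags, were whole multiples of 1 tag within 0.1 for 28838 of 28838 values (100%), and the tags so recovered served the edgeR alternative and the Poisson intervals. Organs were compared with limma 3.58.1 in R 4.3.3 on log2(TP5M + 5), over the 595 sequences whose mean reached 5 TP5M, with an intensity trend and Benjamini-Hochberg adjusted p-values. Log2 differences are on that scale and understate the change of low sequences. Since organs are sets of stages, the limma p-values judge a difference against the spread between stages of 1 library each. That spread was pooled over the organs of the fit and not taken from the compared organs alone. The ratio of miR172c to miR172a was tested by exact permutation (scipy 1.17.1). The limma step was checked on simulated data. Alternatives were pseudocounts of 1 and 20, no filter or a mean of 20 TP5M, TMM scaling, edgeR 4.0.16 with and without TMM, only the organs compared, a term for 6 libraries that share sequences, and leaving out each library. A term for stage in stem and cotyledon against leaf, TMM-scaled stage folds and means without single libraries were added after seeing the data. Named outside sequences were the 3 with the highest and lowest Pearson r to a member. The members, the miR156 list and the tests were chosen with earlier results of these data known.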

Additional observations from a re-analysis of the deposited data

Results flagged for a closer look

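In each organ of 4 or more libraries, a library was looked at again when its gap to the nearest other exceeded Dixon's 95% critical value. Of 18 such sets, 4 had one, where chance gives about 1 in 20, and the libraries of an organ differ in stage by design. M4341-5p was at 773.3 TP5M in the bud before flowering, with the next flower at 353, and at 96.11 TP5M in the old leaf at bud differentiation, with the next leaf at 36.0. miR172h-5p was at 32.08 TP5M in the flower bud at bud differentiation, with the next flower at 12.0. miR172k was at 151.79 TP5M in the new leaf at bud differentiation, with the next leaf at 38.3. Counts at these values were well above 3 tags, and whether stage or library sets them apart was not tested.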

How the results depend on the processing

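No called difference and no ratio of miR172c to miR172a changed direction under any alternative tried. Replicate numbers here only name the stages of an organ in accession order, so they did not serve to pair libraries. Stages that the labels share between organs entered instead as a term for stage, chosen after seeing the data, with 2 members called for stem against leaf (main 4) and 4 for cotyledon against leaf. The count of members called was 3 for flower against leaf with no filter on low values and 3 with the term for the 6 libraries (5 in the main analysis), and 0 for seed against pod with that term (main 2). With no filter 5.18% of 2780 sequences were called for flower against leaf (main 24.9% of 595). With the term the share was 25% there and 2.86% for seed against pod (main 16.3%). With only the organs compared in the fit the count was 2 for seed against leaf (main 5), 1 for pod against leaf (main 4), 0 for stem against leaf and 1 for cotyledon against leaf (main 4 each). Of all sequences that fit called 5.71% for seed against leaf (main 16.3%), 1.51% for stem (main 6.89%) and 2.35% for cotyledon (main 9.75%). For seed against flower the count was 1 with no filter and 1 with TMM scaling (main 3). Those fits called 10.9% and 22.5% of their sequences for that pair (main 29.7%). With the term for the 6 libraries the count was 1 each for stem and cotyledon against leaf. Of all sequences 4.71% and 6.22% were then called (main 6.89% and 9.75%). In the fit with only the organs compared, those organs alone set the spread. Of all tested sequences that fit called 3.7% for pod against leaf (main 16.8%), but 32.6% for seed against pod (main 16.3%). The cause of these changes was not tested.

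Leaving out 1 library gave 4 to 5 members for flower against leaf, 0 to 0 for pod against flower, 2 to 5 for pod against leaf, 1 to 3 for seed against flower, 4 to 5 for seed against leaf, 2 to 2 for seed against pod, 0 to 4 for stem and 1 to 4 for cotyledon against leaf. The log2 ratio of miR172c to miR172a then differed by 5.85 to 6.35 for flower against leaf, 7.15 to 9.20 for seed against leaf and 4.71 to 5.48 for pod against leaf, and by −1.39 to −0.62, 1.05 to 3.09 and 1.94 to 3.99 for pod against flower, seed against flower and seed against pod. The exact adjusted p for seed and pod against leaf was then 0.0714 or 0.143, the smallest p being 0.0357 or 0.0714 with fewer libraries. Under no alternative in which it was tested did miR172c, b-5p or k lose the call for flower against leaf, miR172c that for pod against leaf, miR172a or b-5p that for seed against leaf, or miR172a those for seed against flower and cotyledon against leaf. Scaling by TMM moved the median of all sequences from 0.43 to near 0 for flower against leaf and from −0.64 to −0.16 for seed against pod. Values under 3 tags, among them miR172a in the seed of 6 weeks, carry intervals too wide to rank.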
